A study of Phalaenopsis amabilis with 15 samples.

Results

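Crassulacean acid metabolism (CAM) is the form of photosynthesis in which leaves take up CO2 at night and store it as malic acid until the next day, and moth orchids of the genus Phalaenopsis are known for it. In that cycle carbonic anhydrase interconverts CO2 and bicarbonate, and phosphoenolpyruvate carboxylase (PEPC) joins bicarbonate to phosphoenolpyruvate. PEPC kinase (PPCK) phosphorylates PEPC at night and makes it less sensitive to inhibition by malate, and in other CAM plants the amount of PPCK transcript follows a daily rhythm. The tonoplast dicarboxylate transporter (TDT) carries malate across the membrane of the vacuole, where the acid is stored. Described here are 6 of the 21144 genes counted in leaves of Phalaenopsis under long and short days, chosen by gene identifier: 2 PEPC loci, 2 PPCK1 loci, 1 TDT locus and 1 beta carbonic anhydrase locus, BCA2.

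Young leaves from the top of plants labelled Phalaenopsis amabilis were used for RNA sequencing, in 5 groups of 3 libraries, with 3 plants pooled in each library and 120 plants in the experiment. The control plants, sampled at day 0, had 12 h of light, with 28 °C days and 25 °C nights. Treatment lasted 20 or 40 days and used 25 °C days and 18 °C nights, with either 16 h of light (LD_20d, LD_40d) or 8 h of light (SD_20d, SD_40d). All plants had the control conditions first, and no group carries a transgene or mutation. Temperature, day length and age all separate the control from the other groups and cannot be told apart. Plant age and length of treatment likewise change together from 20 to 40 days, so that age, as used below, stands for both. Since no harvest hour is given, a change in the level of a transcript and a change in its daily timing cannot be told apart either. In whole leaves, fewer cells of a type and less RNA per cell cannot be distinguished. P-values measure the spread between libraries of pooled plants.

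Library totals ran from 11246777 to 14637388 counts. The 15 leaf markers, Rubisco small chain and chlorophyll a-b binding proteins, were all detected, with a summed level of 49494 to 63658 CPM in the control and 9254 to 24583 CPM in the treated libraries. CPM are counts scaled to a common library size. LD_40d replicate 3 and SD_40d replicate 1 stood apart from their groups on the first principal component of all genes (44.6% of the variance), at -18.6 and -16.9, whereas the other LD_40d libraries lay at -59.8 and -50.3 and the other SD_40d libraries at -77.6 and -89.3. Other groups spread on this component as well. LD_20d ran from 9.52 to 64.6, and control replicate 2 lay at 14.5 against -19.6 and -22.1 for the other control libraries. Values that rest on LD_40d replicate 3 or SD_40d replicate 1 are given with and without them. A gene was called when its p-value, adjusted over all 16700 genes tested, was under 0.05, and all 6 genes passed the expression filter. Changes are log2 fold changes ± standard error from one model of all libraries (n = 3 libraries per group), and group means are CPM ± SD.

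The PEPC loci are LOC110022615, here PEPC-615 (scaffold NW_018164640.1, 30323 to 42725, plus strand), and LOC110027447, here PEPC-447 (scaffold NW_018164869.1, 5716320 to 5731872, minus strand). The best protein match of PEPC-615 is PEPC 2 of Sorghum bicolor, and that of PEPC-447 is PEPC 2 of Mesembryanthemum crystallinum, the ice plant. The kinase loci are LOC110038259, here PPCK1-259 (scaffold NW_018250288.1, 8439 to 9699, minus strand), and LOC110023763, here PPCK1-763 (scaffold NW_018164671.1, 1130135 to 1131550, plus strand). Both match PPCK1 of Arabidopsis thaliana best. The annotation describes PPCK1-259 as PEPC kinase 2-like, with a protein model of low quality, and PPCK1-763 as PEPC kinase 1-like. TDT is LOC110038403 (scaffold NW_018250726.1, 124092 to 126840, plus strand) and BCA2 is LOC110036198 (scaffold NW_018223260.1, 28449 to 67613, minus strand). The loci and positions are those of the related species P. equestris, and none of the 6 overlaps another listed locus. Reads could still be divided between the 2 loci of a family where their sequences are alike, and this was not tested.

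**Figure D1:**
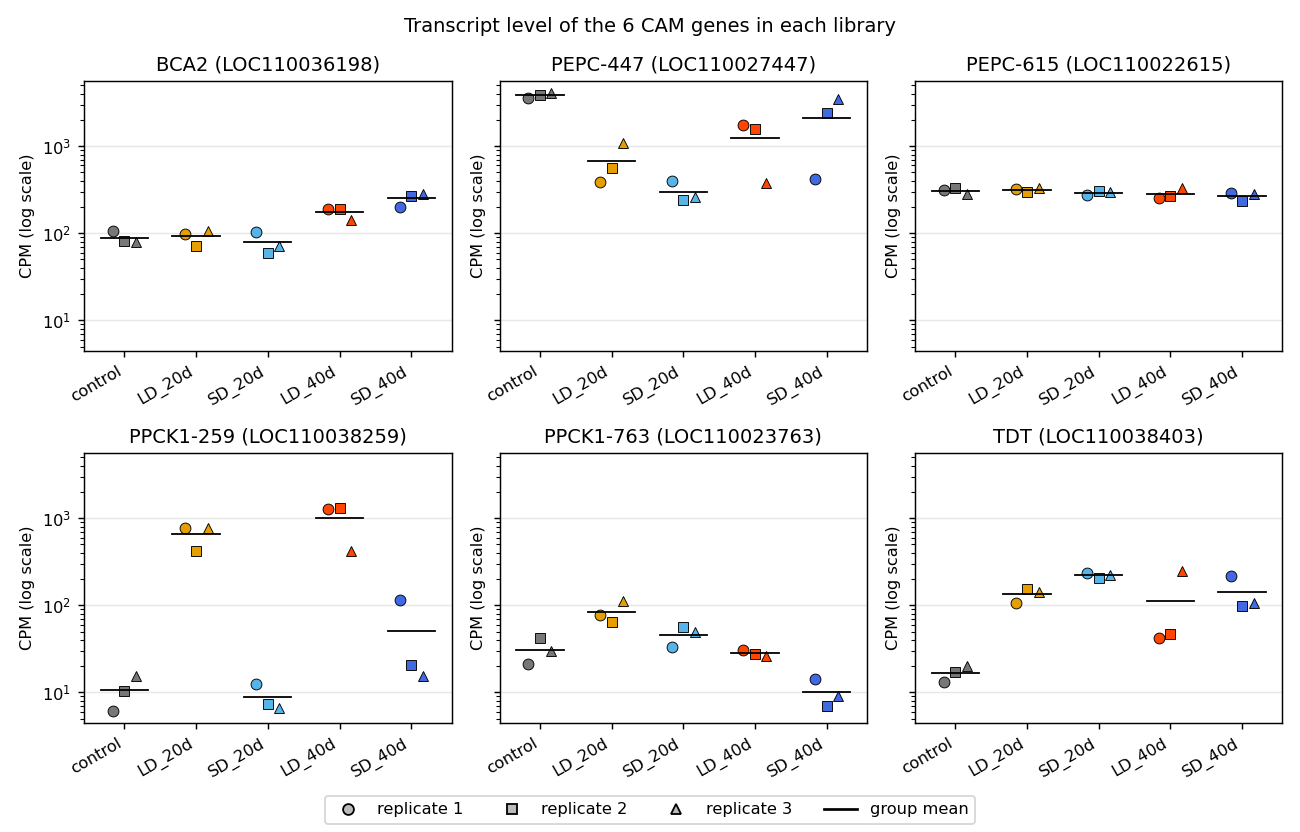
Level of each of the 6 CAM genes in CPM on a shared log scale, by group, with 1 point per library (the symbol gives the replicate number) and a bar at the group mean. PPCK1-259 lies between 417 and 1305 CPM in the LD libraries and between 6.19 and 114 CPM in the control and SD libraries, while PEPC-615 stays between 237 and 335 CPM in all 15.

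The kinase locus PPCK1-259 was high in every long-day library and low in every control and short-day library. In the control it held 6.19, 10.4 and 15.4 CPM. It held 776, 417 and 774 CPM in LD_20d. In SD_20d its levels were 12.5, 7.42 and 6.69 CPM, within the range of the control. The LD_40d libraries held 1285, 1305 and 421 CPM, and the SD_40d libraries 114, 20.7 and 15.6 CPM. The highest short-day library, SD_40d replicate 1, thus lay below the lowest long-day library, at 114 against 417 CPM.

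At 20 days PPCK1-259 was 73.8-fold lower under SD than under LD, a log2 change of -6.21 ± 0.81 (adjusted p = 0.00493). It was the only one of the 6 genes called between photoperiods at that age, and 0.862% of all genes tested were called. That share ran from 0.0296% without SD_20d replicate 3 to 5.23% without LD_20d replicate 2. Without SD_20d replicate 2 or replicate 3 the adjusted p was 0.0501 or 0.0527, with changes of -6.09 and -6.04. At 40 days the locus was 20.0-fold lower under SD, a log2 change of -4.32 ± 0.73 (adjusted p = 0.0276), again as the only one of the 6 genes, beside 0.461% of all genes. The groups did not overlap at either age. At 40 days the share of all genes called was 12.0% without SD_40d replicate 1, 10.2% without that library and LD_40d replicate 3, and 0.0% without LD_40d replicate 1 or without SD_40d replicate 2. The call of PPCK1-259 at 40 days was lost without LD_40d replicate 1 (adjusted p = 0.0828) or replicate 2 (0.0713), without SD_40d replicate 2 (0.135) or replicate 3 (0.0896), and when LD_40d and SD_40d were fitted alone (0.418). Without SD_40d replicate 1 the change was -5.79 (adjusted p = 9.13e-05), and without that library and LD_40d replicate 3 together it was -6.16 (adjusted p = 3.54e-05). Summed leaf markers were higher in SD_20d, at 17438 to 21340.2 CPM, than in LD_20d, at 9254 to 14766 CPM. Of the 15 markers, 12 had a higher mean in SD_20d and 3 a lower one, both Rubisco small chain loci and LHCB7. Their part in this result was not tested.

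Over both ages, PPCK1-259 changed by -5.26 ± 0.54 between SD and LD (adjusted p = 0.000340), and without SD_40d replicate 1 by -6.01. PPCK1-763 was called as well over both ages, so that 2 of the 6 genes were lower under SD and none was higher, beside 4.23% of all genes called. Of the 16700 genes tested, PPCK1-259 stood at rank 9 by p-value both at 20 days and over both ages.

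Against the control, PPCK1-259 rose 61.4-fold in LD_20d (log2 change 5.94 ± 0.80, adjusted p = 0.000207) and 94.0-fold in LD_40d (6.55 ± 0.82, adjusted p = 0.000103). In SD_20d its change from the control was -0.27 ± 0.70 (adjusted p = 0.800). In SD_40d it was called higher than in the control, by 2.23 ± 0.69 (adjusted p = 0.0214), but that value rested on replicate 1. Without that library the change was 0.73 (adjusted p = 0.244), and the call was also lost without control replicate 1 (0.0769) or replicate 2 (0.0656). These comparisons share the control libraries. With age the locus changed by 0.61 ± 0.64 under LD (adjusted p = 0.568) and rose by 2.50 ± 0.70 under SD (adjusted p = 0.0127), where the change without SD_40d replicate 1 was 1.03 (adjusted p = 0.102). The call was also lost without SD_20d replicate 2 (0.0520) or replicate 3 (0.0533).

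In length-corrected terms, PPCK1-259 reached 719 ± 226 CPM per kb in LD_20d and 1101 ± 553 CPM per kb in LD_40d, which placed it at ranks 62 and 42 of the genes. In the control it stood at rank 9166, with 11.7 ± 5.06 CPM per kb, and in SD_20d at rank 10008, with 9.72 ± 3.46. In SD_40d it stood at rank 2523, with 55.0 ± 60.9 CPM per kb, between the LD groups and the other groups. That mean and rank rested on SD_40d replicate 1, at 125 CPM per kb, against 22.7 and 17.1 in replicates 2 and 3. The order of the group means of PPCK1-259 was LD_40d, LD_20d, SD_40d, control and SD_20d. The ranges of the LD groups overlapped, as did those of the control and SD_20d, and SD_40d lay just above the control, with its lowest library at 15.6 against 15.4 CPM.

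The other kinase locus, PPCK1-763, changed with age as well as with photoperiod. Its levels were 21.4, 41.9 and 29.8 CPM in the control. In LD_20d they were 77.3, 64.8 and 112 CPM, above every other library. In SD_20d they were 33.1, 55.6 and 49.1 CPM. By 40 days they were 30.7, 27.5 and 25.9 CPM under LD and 14.4, 6.95 and 9.14 CPM under SD, where all 3 libraries lay below every other library.

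PPCK1-763 was lower under SD than under LD over both ages, by 1.17 ± 0.21 on the log2 scale (adjusted p = 0.00959). At 20 days alone the difference was -0.88 ± 0.29 (adjusted p = 0.150), and at 40 days alone -1.46 ± 0.31 (adjusted p = 0.0606). Neither single age was called, although the groups did not overlap at either. Without SD_40d replicate 1 the difference at 40 days was -1.79 (adjusted p = 0.00397), and DESeq2 called it with all libraries (-1.45, adjusted p = 0.000548). With age it fell by 1.60 ± 0.30 under LD (adjusted p = 0.0260) and by 2.17 ± 0.31 under SD (adjusted p = 0.000733). The call under LD was lost without LD_20d replicate 2 (0.102), LD_20d replicate 3 (0.0795) or LD_40d replicate 1 (0.118). Against the control it rose by 1.45 ± 0.30 in LD_20d (adjusted p = 0.00342) and fell by 1.60 ± 0.31 in SD_40d (adjusted p = 0.00149). Its changes in SD_20d and LD_40d were 0.57 ± 0.29 and -0.15 ± 0.29 (adjusted p = 0.150 and 0.749).

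The 2 PPCK1 loci differed in how far they followed photoperiod. Per length, PPCK1-259 carried fewer reads than PPCK1-763 in all 6 control and SD_20d libraries, with log2 ratios of -1.31, -1.53 and -0.47 in the control and -0.93, -2.42 and -2.39 in SD_20d. It carried more in all 9 other libraries, with log2 ratios of 3.80, 3.16 and 3.26 in LD_20d, 5.86, 6.05 and 4.50 in LD_40d and 3.46, 2.04 and 1.24 in SD_40d. The mean log2 ratio under SD minus that under LD was -4.27, with p = 0.005 in a two-sided exact permutation test within ages, the smallest its 400 assignments allow (adjusted p = 0.015 over 6 ratio tests, higher in 6 of 6 LD libraries than in any SD library of the same age). With age the ratio rose by 3.11 within photoperiods, in an exact permutation test also with p = 0.005 (adjusted p = 0.015). Between the treated and control libraries it differed by 3.41 (exact permutation p = 0.0813, adjusted p = 0.0976). This last test took the treated libraries as alike, although their group means ran from -1.91 in SD_20d to 5.47 in LD_40d. Of the reads of both loci, PPCK1-259 held 88.3 ± 2.33% in LD_20d and 96.6 ± 2.08% in LD_40d, 17.1 ± 8.94% in SD_20d and 25.4 ± 7.59% in the control. In SD_40d its share was 75.5 ± 12.9%, from 63.0% to 88.8%, so that it held most of the reads of both loci there as well.

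**Figure D2:**
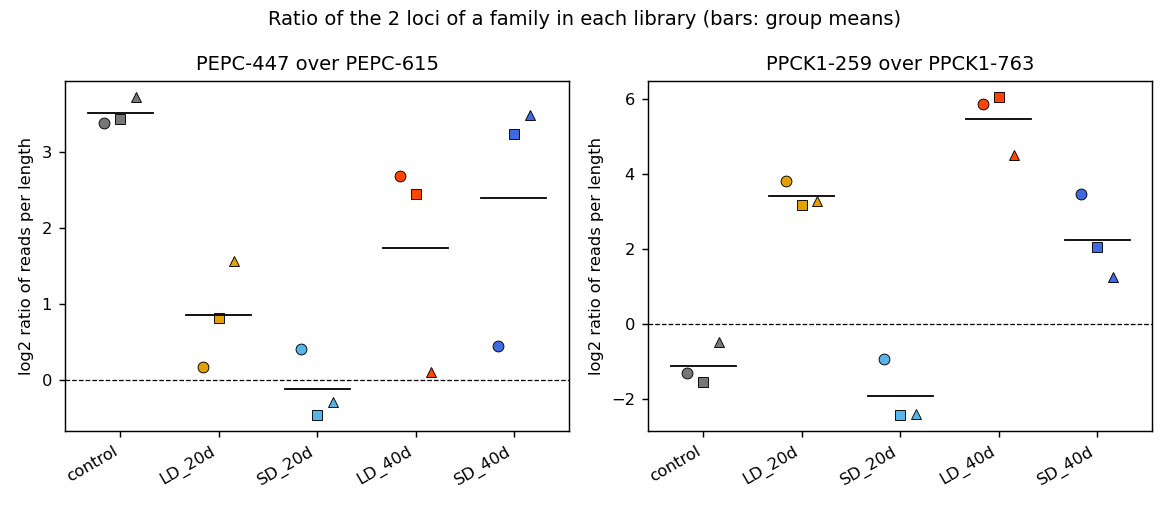
Log2 ratio of reads per length between the 2 PEPC loci (left) and the 2 PPCK1 loci (right) in each library, by group, with symbols for replicates, bars at group means and a dashed line at equal levels. All LD libraries lie at 3.16 or higher in the PPCK1 panel. In the PEPC panel the control libraries lie from 3.40 to 3.73, and SD_40d replicate 3 lies among them at 3.50.

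The enzyme itself was represented by loci of unlike behaviour. PEPC-447 was far higher in the control than at 20 days and returned unevenly by 40 days. Its levels were 3559.7, 3882 and 4047 CPM in the control, and per length it held rank 57 of the genes there. In LD_20d it fell to 388, 566 and 1076 CPM, and in SD_20d to 395, 239 and 263 CPM. The LD_40d libraries held 1765, 1581 and 381 CPM, and the SD_40d libraries 424, 2421 and 3443 CPM. LD_40d replicate 3 and SD_40d replicate 1, the libraries that stood apart, were the lowest of their groups and lay within the range of the 20-day libraries. Each control library lay above every treated library.

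PEPC-447 fell in LD_20d by 2.50 ± 0.67 relative to the control (adjusted p = 0.0159), a 5.66-fold difference, although the call was lost without LD_20d replicate 1 (0.0601) or replicate 2 (0.0614). In SD_20d it fell by 3.68 ± 0.70 (adjusted p = 0.00157), a 12.8-fold difference. At 40 days its change from the control was -1.62 ± 0.65 under LD (adjusted p = 0.0795) and -0.87 ± 0.64 under SD (adjusted p = 0.299). Without LD_40d replicate 3 and SD_40d replicate 1 the value under LD was -1.23 (adjusted p = 0.0209), and it was also called when LD_40d and the control were fitted alone (0.0484). Under SD the locus rose from 20 to 40 days by 2.81 ± 0.68 (adjusted p = 0.00582), a 7.02-fold difference. Under LD that change was 0.88 ± 0.64 (adjusted p = 0.399), and without the libraries that stood apart it was 1.29 (adjusted p = 0.0217).

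Between photoperiods PEPC-447 was not called over both ages, at -0.21 ± 0.45 (adjusted p = 0.848). At 20 days the difference was -1.18 ± 0.64 (adjusted p = 0.374). At 40 days it was 0.75 ± 0.64 (adjusted p = 0.611), and neither age was called. The difference between these, 1.93 ± 0.90, had an adjusted p of 0.456, and 0.0435 without both libraries that stood apart, where it was 2.01. None of the 6 genes was called in that interaction of photoperiod and time with all libraries, and 0.0% of all genes were called by edgeR. At an unadjusted p under 0.05 there were 1832 genes, and DESeq2 called 34. That count turned on SD_40d replicate 1, without which edgeR called 1108 genes (6.55%), and 739 genes (4.38%) were called without LD_40d replicate 3 as well. The interaction was 1.89 ± 0.93 for PPCK1-259 (adjusted p = 0.470), and 0.44 (adjusted p = 0.721) without SD_40d replicate 1. For PPCK1-763 it was -0.57 ± 0.42 (adjusted p = 0.620), and for TDT -0.39 ± 0.75 (adjusted p = 0.864).

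PEPC-615 was the steadiest of the 6. It held 313, 332 and 281 CPM in the control, 318, 297 and 335 CPM in LD_20d and 276, 304 and 298 CPM in SD_20d. At 40 days it held 253, 267 and 328 CPM under LD and 287, 237 and 282 CPM under SD. The ranges of neighbouring groups overlapped throughout, and it was called in none of the 10 comparisons. Its changes ran from -0.20 ± 0.12 in SD_40d against the control (adjusted p = 0.201) to 0.041 ± 0.17 in the interaction (adjusted p = 0.942).

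As a result, the log2 ratio of PEPC-447 to PEPC-615 per length moved from between 3.40 and 3.73 in the control to between -0.46 and 0.40 in SD_20d, where the loci were close to equal. The mean of the treated minus that of the control libraries was -2.30 (two-sided exact permutation test over 455 assignments, p = 0.0110, adjusted p = 0.0220, and adjusted p = 0.0675 without control replicate 3). That test took the treated libraries as alike, although their group means ran from -0.12 in SD_20d to 2.40 in SD_40d. With age the ratio differed by 1.70 (exact permutation p = 0.045, adjusted p = 0.0675). Without SD_40d replicate 1 that difference was 2.19 (exact permutation, adjusted p = 0.0375), and without LD_40d replicate 3 it was 2.11 (adjusted p = 0.02). Between SD and LD it was -0.16 (exact permutation p = 0.795, adjusted p = 0.795). The CPM of both PEPC loci summed to 4138 ± 237 in the control. After 20 days the sum was 994 ± 370 under LD and 591 ± 69.7 under SD, and after 40 days 1525 ± 712 and 2365 ± 1528.

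The malate transporter locus TDT was higher in every treated library than in every control library. It held 13.0, 17.4 and 20.1 CPM in the control. It held 105, 156 and 141 CPM in LD_20d and 236, 205 and 221 CPM in SD_20d, and these groups did not overlap. At 40 days it held 42.2, 46.7 and 247 CPM under LD and 217, 99.0 and 106 CPM under SD. LD_40d replicate 3 and SD_40d replicate 1, in which PEPC-447 was lowest, were here the highest of their groups.

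TDT rose relative to the control in all 4 treated groups. The increases were 2.99 ± 0.58 in LD_20d (adjusted p = 0.00251) and 3.71 ± 0.60 in SD_20d (adjusted p = 0.000518), a 13.1-fold difference. At 40 days they were 2.73 ± 0.58 under LD (adjusted p = 0.00374) and 3.06 ± 0.58 under SD (adjusted p = 0.00141). Without LD_40d replicate 3 the increase in LD_40d was 1.40 (adjusted p = 0.00550). Between photoperiods TDT was not called, with 0.72 ± 0.53 after 20 days (adjusted p = 0.527) and 0.33 ± 0.53 after 40 days (adjusted p = 0.812). That value at 40 days turned on single libraries. It was 1.66 (adjusted p = 0.0367) without LD_40d replicate 3, -0.13 (adjusted p = 0.909) without SD_40d replicate 1, and 1.21 (adjusted p = 0.00254) without both. Over both ages the difference was 0.52 ± 0.38 (adjusted p = 0.483), and 1.19 (adjusted p = 0.00643) without LD_40d replicate 3. With age it changed by -0.26 ± 0.53 under LD (adjusted p = 0.789) and by -0.65 ± 0.53 under SD (adjusted p = 0.345), and by -1.61 and -1.09 without both libraries (adjusted p = 0.000721 and 0.000371). Without LD_40d replicate 3 alone, the change under LD was -1.59 (adjusted p = 0.0190).

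In these libraries the 2 vascular markers also differed from their groups, with a summed level of 58.2 CPM in LD_40d replicate 3 against 7.69 and 7.92 CPM in the other LD_40d libraries. In SD_40d replicate 1 the sum was 29.6 CPM, against 8.96 and 9.66 CPM in the other SD_40d libraries. These markers, both sieve element occlusion genes, followed TDT between groups only in part. Their sum was 11.2, 69.8 and 14.6 CPM in the control, 49.2 to 82.8 CPM in LD_20d and 69.3 to 119 CPM in SD_20d. At 40 days the median sum was 7.92 CPM under LD and 9.66 CPM under SD, below the control median of 14.6 CPM. TDT lay above the control in both of these groups. Control replicate 2, at 69.8 CPM of the vascular markers, held 17.4 CPM of TDT, within the range of the other control libraries. The sum of 57 genes of dividing cells was 1928 CPM in SD_40d replicate 1 against 1373 and 1342 CPM in the others, and 1832 to 1969 CPM across LD_40d. One gene of dividing cells was at 0 throughout. The part of other tissue in the values of PEPC-447 and TDT was not tested.

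BCA2, whose best match is a chloroplast beta carbonic anhydrase of A. thaliana, changed with age. It held 105, 80.6 and 78.4 CPM in the control. At 20 days it held 97.3, 72.1 and 106 CPM under LD and 104, 59.1 and 72.0 CPM under SD, ranges that overlapped each other and the control. At 40 days it held 190, 190 and 142 CPM under LD and 201, 270 and 283 CPM under SD, each above every control and 20-day library.

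From 20 to 40 days BCA2 rose by 1.68 ± 0.22 under SD (adjusted p = 0.000708) and by 0.92 ± 0.22 under LD (adjusted p = 0.0404). The call under LD was lost without LD_20d replicate 2 (0.177) or replicate 3 (0.0846), without LD_40d replicate 1 (0.155) or replicate 2 (0.0983), and when the LD groups were fitted alone (0.0622). Relative to the control it rose by 0.98 ± 0.22 in LD_40d (adjusted p = 0.00568) and by 1.51 ± 0.22 in SD_40d (adjusted p = 0.000284). Its changes in LD_20d and SD_20d were 0.06 ± 0.22 and -0.17 ± 0.22 (adjusted p = 0.872 and 0.590). The groups at 40 days did not overlap, but the difference of 0.53 ± 0.22 was not called (adjusted p = 0.265). At 20 days the difference was -0.23 ± 0.22 (adjusted p = 0.644), and over both ages 0.15 ± 0.16 (adjusted p = 0.645). The test of a differing photoperiod effect between ages gave 0.76 ± 0.31 for BCA2 (unadjusted p = 0.0287, adjusted p = 0.421).

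**Figure D3:**
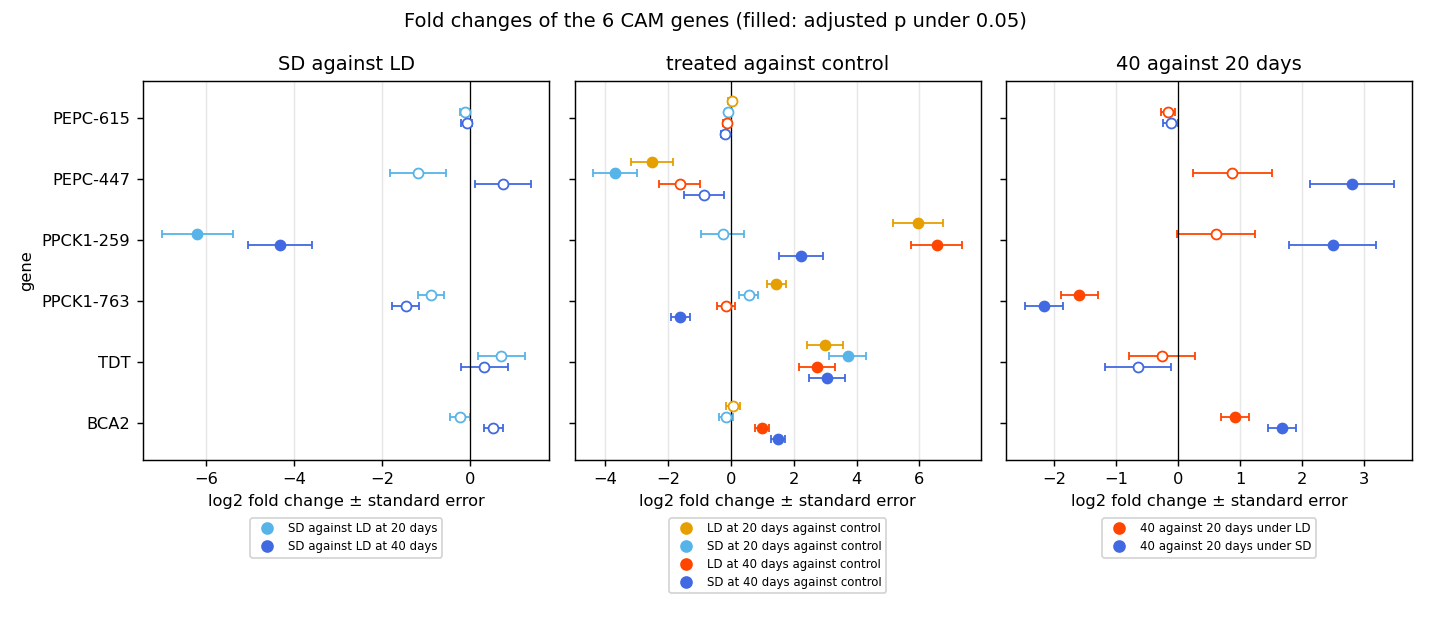
Log2 fold changes of the 6 genes with standard errors, SD against LD (left), treated groups against the control (middle) and 40 against 20 days (right), with filled points for adjusted p under 0.05. PPCK1-259 is the only filled gene in the left panel, at -6.21 and -4.32, and TDT is filled in all 4 comparisons with the control.

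Counted over the 6 genes, 3 rose and 1 fell in LD_20d against the control, where 24.0% of all genes were called. In SD_20d 1 rose and 1 fell, beside 35.1% of all genes. In LD_40d 3 rose and none fell, beside 27.5% of all genes. In SD_40d 3 rose and 1 fell, beside 38.3%. From 20 to 40 days 1 rose and 1 fell under LD, beside 5.16%, and 3 rose and 1 fell under SD, beside 40.7%. With so few genes and backgrounds this high against the control and with age under SD, these counts describe the 6 genes and no more.

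Other genes of the CAM pathway were taken from a list matched by words in the gene descriptions, which held 78 loci. Of the 72 besides the 6 described above, 57 passed the expression filter. The list covers carbonic anhydrases, malate dehydrogenases, malic enzymes, PEP carboxykinase, pyruvate phosphate dikinase, malate channels and carriers, sugar phosphate translocators and the proton pumps of the vacuole. Some matches share only a word with the pathway, such as nectarins described as carbonic anhydrases and a 3-isopropylmalate dehydrogenase of leucine synthesis.

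Between photoperiods the shares called by edgeR were near those of all genes. At 20 days 1 of the 57 (1.75%, beside 0.862% of all genes) was lower under SD and none higher, the proton pump subunit VHA-c''1 (LOC110024188), at -0.69 ± 0.13 (adjusted p = 0.0265). DESeq2 called 8 of the whole list of 78 loci, all lower. That was a larger share than the 4.2% called of all genes, 211 higher and 604 lower, and the difference was not tested. At 40 days edgeR called none of the 57, beside 0.461% of all genes. DESeq2 called 2 of the whole list at that age, beside 3.12% of all genes. Over both ages 2 (3.51%, beside 4.23%) were lower, VHA-c''1 at -0.58 ± 0.09 (adjusted p = 0.00436) and PDRP1 (LOC110022763), the regulator of pyruvate phosphate dikinase, at -0.33 ± 0.08 (adjusted p = 0.0435).

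Age under short days moved more of the list. From 20 to 40 days under SD, 31 of the 57 rose and 3 fell, 59.6% in all beside 40.7% of all genes, with a median log2 change of 0.51 beside -0.0049 for all genes. Of all 16700 genes, 3350 rose and 3451 fell in this comparison. Among the vacuolar proton ATPase subunits, which acidify the vacuole, 18 of 23 rose and none fell. That class was not tested as a set. The subunit H locus LOC110036954 rose by 1.32 ± 0.16 (adjusted p = 0.000650). The vacuolar pyrophosphatase AVP (LOC110034816), another proton pump, rose by 2.02 ± 0.27 (adjusted p = 0.000695), from 159 ± 49.8 to 646 ± 120 CPM. The mitochondrial NAD-malic enzyme MAOM (LOC110020669), which releases CO2 from malate, rose by 1.20 ± 0.18 (adjusted p = 0.000733). Further genes, picked after their values were seen, were the chloroplast-type carbonic anhydrase CAHC (LOC110024122), which rose by 4.06 ± 0.67 (adjusted p = 0.000913), and the dikinase PPDK1 (LOC110023679), which regenerates phosphoenolpyruvate and rose by 2.52 ± 0.42 (adjusted p = 0.000952). Under LD 3 of the 57 rose and 1 fell from 20 to 40 days, 7.02% in all beside 5.16% of all genes. The AVP locus rose by 1.152 ± 0.26 (adjusted p = 0.0368), the proton ATPase subunit VATG1 (LOC110038030) by 0.51 ± 0.14 (adjusted p = 0.0497), and the phosphoenolpyruvate translocator PPT2 (LOC110018722) fell by 0.68 ± 0.18 (adjusted p = 0.0465). Whether the age effect on these genes differed between photoperiods was covered by the interaction, in which none of the 57 was called. Genes of dividing cells moved with age under SD as well, 36 of 48 falling and 1 rising, and the summed heat shock proteins stood at 11993 to 23589 CPM in SD_40d and 7753 to 9200 CPM in SD_20d. Their part in these counts was not tested.

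**Figure D4:**
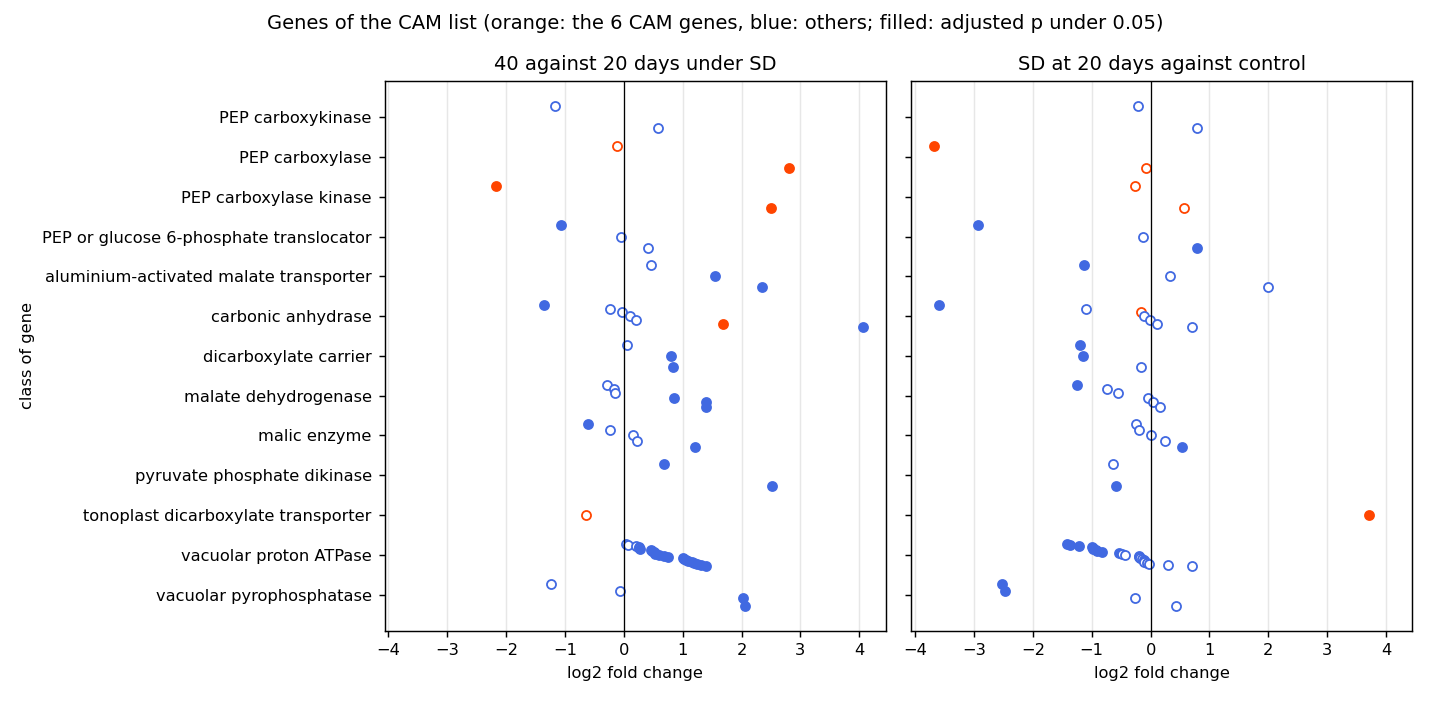
Log2 fold changes of the tested genes of the CAM list by class, for 40 against 20 days under SD (left) and SD at 20 days against the control (right), 1 point per gene, filled where adjusted p was under 0.05. In the left panel 18 of the 23 vacuolar proton ATPase subunits are filled and to the right of 0, and 3350 of all 16700 genes rose in that comparison.

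Against the control, 3 of the 57 rose and 11 fell in LD_20d (24.6% in all, beside 24.0% of all genes), and 2 rose and 19 fell in SD_20d (36.8% beside 35.1%). At 40 days 12 rose and 5 fell under LD (29.8% beside 27.5%), and 13 rose and 5 fell under SD (31.6% beside 38.3%). Taken both ways together, these shares lay near those of all genes, but the genes of the list split less evenly by direction. Of all 16700 genes, 1904 rose and 2098 fell in LD_20d, and 2867 rose and 2997 fell in SD_20d. In LD_40d 2321 rose and 2278 fell, and in SD_40d 3142 rose and 3257 fell. The split of the list by direction was not tested. The plastid glucose 6-phosphate translocator GPT2 (LOC110032129), which moves sugar phosphate between cytosol and plastid, fell from 654 ± 35.9 CPM in the control to between 85.8 and 114 CPM in the treated group means. Its changes were -2.91 ± 0.23 under LD and -2.93 ± 0.23 under SD after 20 days, and -2.65 ± 0.23 and -2.52 ± 0.23 after 40 days (adjusted p from 3.00e-06 to 6.72e-06). The proton ATPase subunit VHA-e1 (LOC110032961) also fell in these 4 groups, by 0.80 to 1.36. The AVP locus fell by 1.70 ± 0.26 in LD_20d and by 2.52 ± 0.27 in SD_20d (adjusted p = 0.000579 and 3.29e-05). The proton ATPase locus LOC110023112 rose by 0.71 ± 0.12 in LD_40d (adjusted p = 0.000706), and MAOM rose by 1.01 ± 0.18 in SD_40d (adjusted p = 0.000830).

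The genes whose pattern was most like that of each of the 6 were found by Pearson's r of log2 CPM over the 15 libraries, among 11457 genes. The libraries form groups, so such values describe shared group patterns. For PPCK1-259 these were the Nudix hydrolase NUDT13 (r = 0.961), the cytochrome P450 CYP93G1 (0.959), the CONSTANS-like zinc finger genes COL10 (0.951) and COL9 (0.941), and PHR1, which the table describes as a photolyase (0.939). PEPC-447 was most like the glycolytic genes PFP-BETA, a subunit of a pyrophosphate-dependent phosphofructokinase (0.960), and FBA1, a cytosolic fructose-bisphosphate aldolase (0.955), followed by MYB4 (0.947). For TDT they were RIC1 (0.953), PAA2 (0.951) and fam91a1 (0.950). The nearest to BCA2 were SHKA, a plastid enzyme at the entry to the shikimate pathway (0.973), a protein phosphatase 2C (Os01g0552300, 0.971) and MAOM (0.966). PPCK1-763 was most like MAN1 (0.919), GRC2 (0.906) and At3g50780 (0.896), and PEPC-615 was less closely matched, by CYP81Q32 (0.864), At5g62930 (0.852) and CXE2 (0.838).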

How the data were processed

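RNA-seq of 15 leaf libraries was analysed from one deposited table of 21144 P. equestris loci. Per the file headers, the authors gave read counts per gene, whole numbers not normalized, and FPKM, which served only to check that they follow count, length and library total (within 0.01 reads for 21143 genes, among them all 6 described). Per the submitters' processing notes, the tools were HTSeq 0.9.1, HISAT2 2.0.5, cutadapt 1.15 and DESeq 1.30.0. The genome build and strand setting are not given in the sources used here. Gene names are the best protein matches in the table.

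Counts were tested with the quasi-likelihood F test of edgeR 4.0.16 under R 4.3.3 (expression filter, 16700 genes, TMM scaling, one fit of all groups) and Benjamini-Hochberg adjustment over all genes in each of 10 comparisons. Each standard error is the absolute log2 change divided by the root of F. CPM use TMM library sizes. Ratios of loci used counts plus 0.5, divided by gene length. The script was tested on simulated data. Alternatives used DESeq2 1.42.0, limma 3.58.1 (voom), a replicate block, a log2 change of at least 1, the compared groups alone, and each library left out. DESeq2 gave no p-value for PPCK1-259.

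The 6 genes were examined in every comparison, whatever the result of the test. From the rest of the CAM list, up to 8 called genes with the smallest adjusted p were named per comparison of SD with LD and 3 in each other comparison. Genes of like pattern needed a protein match and a mean log2 CPM of at least 2, and the 5 nearest were named for PPCK1-259 and 3 for the others. The genes and lists were chosen with earlier results of these data known. The library totals give counts of 76 or more for each of the 6 genes in every library, so the spread between libraries, not counting, limits precision.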

Additional observations from a re-analysis of the deposited data

How the results depend on the processing

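With 3 libraries per group, single libraries decided several calls, and DESeq2 could not be used for PPCK1-259, which it gave no adjusted p. Its log2 changes there, -6.22 at 20 days and -4.33 at 40 days for SD against LD, lay near those of edgeR. Depth was not the limit for the 6 genes, and neither hour of harvest nor batch is recorded. Over the 824 values of the 6 genes recomputed under an alternative, 760 kept their direction and their side of the threshold, 29 lost a call, 14 gained one and 21 changed sign. Unless a value above shows it, the cause of a change was not tested.

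For SD against LD at 40 days, DESeq2 called 1 of the 6 genes, PPCK1-763. The compared groups alone gave 0 calls, beside 0.0% of all genes. Leaving out LD_40d replicate 3 and SD_40d replicate 1 together, chosen after seeing the data, gave 3. From 20 to 40 days under LD, the number called was 1 with a replicate block, beside 1.8% of all genes. With the compared groups alone it was also 1, beside 0.912%. It was 1 again where the log2 change also had to reach 1, and 4 without both libraries. The fit without both libraries also gave 1 call in the interaction. Of the 78 loci of the CAM list, DESeq2 called 8 at 20 days for SD against LD, beside 4.2% of all genes. At 40 days it called 2, beside 3.12%. With edgeR 2 and 1 were called at these ages, and 9 at 40 days without both libraries. Without both, calls over all genes rose too, from 0.461% to 10.2% for SD against LD at 40 days, from 5.16% to 21.8% with age under LD and from 0.0% to 4.38% in the interaction. Without both, PEPC-615 changed by 0.00107 at 40 days between SD and LD, and the interaction of TDT was 0.51.

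Leaving out one library at a time, calls among the 6 genes ranged from 0 to 1 at 20 days and from 0 to 2 at 40 days for SD against LD, and from 0 to 3 for 40 against 20 days under LD. CAM list calls ranged from 0 to 5 at 20 days and from 0 to 8 at 40 days. The share of all genes called ranged as well, for SD against LD from 0.0296% to 5.23% at 20 days and from 0.0% to 12.0% at 40 days. For 40 against 20 days under LD it ranged from 0.00591% to 11.9%. Signs of uncalled changes turned in these ranges: PEPC-615 from -0.15 to 0.046 for SD against LD at 40 days, from -0.024 to 0.083 in LD_20d against the control and from -0.031 to 0.16 in the interaction, PEPC-447 from -0.49 to 0.040 for SD against LD over both ages, and PPCK1-259 from -0.60 to 0.10 in SD_20d against the control. PPCK1-763 ran from -0.36 to 0.11 in LD_40d against the control. TDT ran from -0.13 to 1.66 for SD against LD at 40 days, from -1.59 to 0.13 for 40 against 20 days under LD and from -0.83 to 0.95 in the interaction. BCA2 ran from -0.057 to 0.21 in LD_20d and from -0.43 to 0.0014 in SD_20d, both against the control. The log2 ratio of the PEPC loci ran from -0.57 to 0.33 for SD against LD, from 1.43 to 2.19 for 40 against 20 days and from -2.51 to -2.15 for treated against control.

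Same-numbered libraries of different groups correlated between -0.29 and 0.36 (median -0.03), over 0.1 in 9 of 30 pairs. Among the control, LD_20d and SD_20d, replicates 1 and 2 gave 0.18 to 0.36 and replicate 3 gave -0.10 to 0.07. Libraries of unlike number were not compared, so whether the replicate numbers pair the libraries was not settled. With the replicate block, PPCK1-259 in SD_40d against the control was 1.81 (adjusted p = 0.0571) and BCA2 for 40 against 20 days under LD 0.93 (adjusted p = 0.0562), so that neither was called. With limma-voom, PPCK1-259 was 1.75 in SD_40d against the control (adjusted p = 0.0903) and 1.98 for 40 against 20 days under SD (adjusted p = 0.0610).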
